A study of Homo sapiens with 51 samples.

Results

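The collagen genes were taken as every RefSeq protein-coding gene (GRCh38) whose symbol has the form COL, a number, A and a number. The rule gave 44 of 19970 protein-coding genes. An open chromatin region belonged to a collagen gene when the nearest end of any protein-coding gene lay within 50 kb of it and that gene was a collagen gene. This left 325 of 100584 regions in undifferentiated cells, 456 of 142087 under BMP4 and 469 of 162317 under SMADi, and all 44 genes had at least 1 region in each of the 3 tables.

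Collagens are proteins of the extracellular matrix whose chains wind into a rope-like helix, and each gene encodes 1 kind of chain. Fibrillar collagens build the rods of bone, cartilage and skin, type IV collagens build the sheet of the basement membrane under epithelia, and fibril-associated collagens decorate the rods. In the early embryo the epithelial epiblast rests on a basement membrane that breaks down as mesoderm forms, and the neural plate keeps one. Accessibility of a gene's surroundings is not the same as its transcription, and no RNA was measured here.

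Open chromatin was mapped by ATAC-seq, where a transposase inserts adapters into accessible DNA, in 51 libraries of the human embryonic stem cell line H1 (WA01). Cells grew on Matrigel or Geltrex in mTeSR Plus. The 3 genotypes were named WT (18 libraries), KO (17 libraries) and DATG, written ΔATG in the design text (16 libraries). The labels name neither the gene altered in KO and DATG nor how many clones each line stands for, so no check of a targeted gene could be made. Cells were collected undifferentiated (day 0, 2 libraries per genotype), on days 1 to 5 of BMP4, a bone morphogenetic protein given to obtain mesoderm (2 libraries per genotype and day), and on days 1, 4 and 5 of SMADi, a neural induction medium with SMAD inhibitors given to obtain neuroectoderm. Under SMADi there was 1 library each for KO on day 4, DATG on day 1 and DATG on day 5, and 2 libraries in each other group. SMADi days 2 and 3 were not analysed here.

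Total counts per library ran from 4616521 to 7516259 at day 0, from 4019778 to 13850448 under BMP4 and from 7086918 to 23252871 under SMADi. The labels do not say that the libraries a and b of a group came from separate cultures, so p-values measure the spread between these libraries, which may be technical. The library labelled KO, SMADi day 1, replicate b was doubted: over 1462 regions matched to those that separated KO from DATG under BMP4, it lay at 0.758 of the way from the KO library a (0) to the DATG library of that day (1). Each end of that scale is 1 library, so the value alone does not show that the label is wrong. The named differences of KO from WT under SMADi and the main counts of those calls are given with this library and without it. Differences of KO from DATG under SMADi are given with it alone. Cell type markers called in WT between day 1 and day 5 fitted the labels in part. Under BMP4, 7 of 8 pluripotent cell markers lost accessibility (22.5% of all genes) and 5 of 8 streak and nascent mesoderm markers gained it (24.9%). Under SMADi 4 of 8 neuroectoderm markers gained it (21% of all genes). At least as many neural crest and endoderm markers gained it under SMADi. Amnion and trophoblast markers also gained it under BMP4, and these lists are counted in the closing section. Cells were measured in bulk, so fewer cells of a type and less accessibility per cell cannot be told apart.

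Levels are reads scaled to the library's total in its table (CPM), summed over a gene's regions, and differences are log2 fold changes with their standard error. Unless another test is named, adjusted p is from edgeR's quasi-likelihood test with Benjamini-Hochberg adjustment over all genes or all regions of the table, and a value is called when it is under 0.05. Per region of 201 bases, collagen genes had a median of 7.56 CPM at day 0 against 10.1 CPM over all genes with a region. The same medians were 5.16 against 7.23 CPM under BMP4 and 4.92 against 6.50 CPM under SMADi. Collagen genes had more regions each, with a median of 6, 9.5 and 8.5 in the 3 tables against 4, 5 and 5 over all genes.

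On this per-region scale the day 0 family medians ran from 5.08 CPM for the 6 type IV basement membrane genes and 6.81 for the 5 type VI genes through 8.05 for the 10 fibril-associated genes and 8.06 for the 11 fibrillar genes to 9.03 for the 2 remaining genes, COL26A1 and COL28A1. Among single genes, COL25A1, which encodes a transmembrane collagen of neurons, had the highest value at day 0 (16.1 CPM per region) and under BMP4 (10.4). COL2A1, the chain of cartilage type II collagen, was highest under SMADi at 9.22 CPM per region, just above COL25A1 at 9.04. COL3A1, the type III chain of vessels and skin, was lowest under BMP4 (2.31) and under SMADi (1.89). By summed CPM the highest members were COL18A1, whose protein carries the endostatin fragment, and COL26A1, both with many regions.

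Most regions of these genes lay inside the gene. Under BMP4, 289 of the 456 regions were inside, 75 upstream, 33 past the far end and 59 outside genes whose strand was not in the tables used. The annotation used here lists no exons, so exon and intron cannot be given. Within 1 kb of a gene end lay 92 of the 325 regions at day 0, 108 of the 456 under BMP4 and 108 of the 469 under SMADi. Of the day 0 regions 274 had a counterpart in both other tables, while 71 regions were found under BMP4 alone and 104 under SMADi alone.

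Start windows of 300 bases around annotated starts were matched in the RefSeq promoter table (GRCh38.p14) for 32 of the 44 genes. The genes named without a window are COL14A1, COL1A1, COL1A2, COL20A1, COL22A1, COL2A1, COL3A1, COL5A2, COL6A1, COL6A5, COL8A1 and COL9A3. The 6 windows below are shown because each lies under or beside a region whose values are described further on. The COL9A1 window shown belongs to a start inside the gene, and its outermost start (chr6:70303035-70303334) had no region in any table. They are written 5′ to 3′ on the gene's strand, with capitals marking 3 kinds of motif that were searched on both strands. The TATA box is spelled TATAAA on its own strand. Its other strand reads TTTATA. The CCAAT box has the letters of its name. Its other strand reads ATTGG. The GC box is spelled GGGCGG. Its other strand reads CCGCCC.
COL5A1 (chr9:134641553-134641852, + strand): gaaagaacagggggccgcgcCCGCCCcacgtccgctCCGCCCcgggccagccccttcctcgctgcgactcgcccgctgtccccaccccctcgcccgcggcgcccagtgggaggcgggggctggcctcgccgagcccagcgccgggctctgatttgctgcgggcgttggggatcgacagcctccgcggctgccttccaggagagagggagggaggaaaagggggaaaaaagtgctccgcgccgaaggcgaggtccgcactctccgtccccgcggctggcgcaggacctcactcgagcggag
COL5A3 (chr19:10010455-10010754, - strand): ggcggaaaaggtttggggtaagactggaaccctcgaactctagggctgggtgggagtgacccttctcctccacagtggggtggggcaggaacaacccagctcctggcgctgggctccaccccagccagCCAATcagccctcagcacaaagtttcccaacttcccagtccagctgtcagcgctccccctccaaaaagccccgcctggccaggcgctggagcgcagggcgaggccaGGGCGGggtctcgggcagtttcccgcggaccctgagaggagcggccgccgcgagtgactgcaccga
COL9A1 (chr6:70283148-70283447, - strand): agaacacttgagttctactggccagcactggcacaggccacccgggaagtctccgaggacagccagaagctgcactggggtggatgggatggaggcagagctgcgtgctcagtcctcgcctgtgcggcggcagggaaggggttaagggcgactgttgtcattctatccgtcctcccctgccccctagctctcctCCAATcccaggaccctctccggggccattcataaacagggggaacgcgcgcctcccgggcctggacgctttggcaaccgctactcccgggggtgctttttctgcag
COL7A1 (chr3:48595280-48595579, - strand): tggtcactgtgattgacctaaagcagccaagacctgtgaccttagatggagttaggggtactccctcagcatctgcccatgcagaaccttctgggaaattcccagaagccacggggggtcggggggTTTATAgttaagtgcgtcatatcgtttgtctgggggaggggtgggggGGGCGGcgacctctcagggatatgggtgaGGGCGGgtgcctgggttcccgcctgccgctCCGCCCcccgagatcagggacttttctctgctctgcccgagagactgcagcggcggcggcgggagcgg
COL4A2 (chr13:110307034-110307333, + strand): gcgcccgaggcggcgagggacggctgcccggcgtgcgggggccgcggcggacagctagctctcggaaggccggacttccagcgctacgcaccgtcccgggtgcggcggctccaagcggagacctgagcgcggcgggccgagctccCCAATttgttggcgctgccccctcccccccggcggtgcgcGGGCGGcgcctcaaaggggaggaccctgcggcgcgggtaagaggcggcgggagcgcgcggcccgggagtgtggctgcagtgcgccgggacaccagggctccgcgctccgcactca
COL4A3 (chr2:227164374-227164673, + strand): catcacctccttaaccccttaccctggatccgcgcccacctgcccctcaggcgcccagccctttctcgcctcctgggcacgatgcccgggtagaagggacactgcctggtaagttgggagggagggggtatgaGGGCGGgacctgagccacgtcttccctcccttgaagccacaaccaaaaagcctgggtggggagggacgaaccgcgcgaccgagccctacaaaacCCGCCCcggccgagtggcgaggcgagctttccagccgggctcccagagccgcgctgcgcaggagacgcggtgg

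The COL7A1 window held 1 TATA box and 3 GC boxes, and the COL9A1 window held 1 CCAAT box and no GC box. COL5A1 and COL4A3 had 2 GC boxes each, and COL5A3 and COL4A2 had 1 CCAAT box and 1 GC box each. Over the 44 collagen windows, in which some genes have more than 1, 18.2% held a TATA box against 9.47% of 22198 windows of all protein-coding genes. A CCAAT box was in 31.8% of collagen windows against 34.7% of all, and a GC box in 54.5% against 56.3%. Median GC content was 63.7% against 62.3%. A match describes letters in the window, not a site in use.

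In undifferentiated cells, collagen genes hardly differed between genotypes. KO differed from WT at 0 of 44 genes, with 2 at an unadjusted p under 0.05 and 0.139% of all genes called, and DESeq2 also called none. DATG differed from WT at 1 of 44 genes, with 6 at an unadjusted p under 0.05 and 0.185% of all genes called. KO and DATG differed at 0 of 44 genes, with 9 at an unadjusted p under 0.05 and 0.637% of all genes called, and DESeq2 again called none. No marker list had a called gene in any of these 3 comparisons.

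The gene called at day 0 was COL7A1, whose protein forms the anchoring fibrils that tie epithelial basement membranes to the tissue below. Its level was 31.5 and 32.0 CPM in WT, 24.0 and 24.5 in KO and 20.0 and 19.5 in DATG. Both DATG libraries lay below both KO libraries, which lay below both WT libraries. The difference of DATG from WT was -0.68 (SE 0.14, adjusted p = 0.00104), while that of KO was -0.40 (SE 0.14, adjusted p = 0.3). The call for DATG was lost in 3 of the 6 fits that each left out 1 library, namely without DATG a (-0.70, adjusted p = 0.0548), DATG b (-0.67, adjusted p = 0.0799) or WT a (-0.69, adjusted p = 0.0925). It was also lost with DESeq2 (-0.68, adjusted p = 0.403) and when regions within 1 kb of a gene end alone were summed (-0.65, adjusted p = 0.152).

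Under BMP4, WT cells changed the accessibility of 23 of 44 collagen genes between day 1 and day 5. Accessibility rose at 7 (24.9% of all genes) and fell at 16 (22.5%), and 47.4% of all genes were called, so the collagen share was near that of all genes. The median change was -0.08 against 0.00 over all genes. Fibrillar genes split, with 3 of 11 rising and 3 falling, while the fall held 5 of 10 fibril-associated genes and 3 of 4 genes of anchoring fibrils and hexagonal networks, with none of either group rising. Both multiplexin genes rose, 1 type IV gene rose and 2 fell, 1 of 4 transmembrane genes rose and 1 fell, both remaining members fell, and none of the 5 type VI genes was called. Over all 5 days 28 of 44 genes differed among days (56.1% of all genes).

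COL5A1, whose chain helps set the width of type I collagen fibrils, went from 86.0 and 91.3 CPM on day 1 to 140.2 and 152 CPM on day 5, a rise of 0.77 (SE 0.06, adjusted p = 3.18e-14). COL1A1, the main chain of type I collagen of bone and skin, went from 102 and 105 to 143 and 163 CPM, a rise of 0.62 (SE 0.07, adjusted p = 2.16e-10). Both genes had both day 5 libraries above both day 1 libraries, and while COL5A1 climbed from day to day, COL1A1 stayed near its day 1 level until day 3. COL18A1 of the basement membrane went from 206 and 229 to 280.0 and 285 CPM, a rise of 0.43 (SE 0.05, adjusted p = 1.67e-09). COL15A1, its multiplexin relative, went from 60.1 and 52.7 to 69.2 and 74.6 CPM, a rise of 0.40 (SE 0.07, adjusted p = 1.69e-05). COL4A2, a chain of the widespread type IV network, went from 94.2 and 97.7 to 109 and 111 CPM, a rise of 0.25 (SE 0.06, adjusted p = 0.00138). The day 1 and day 5 libraries of these genes did not overlap, though the COL4A2 gap was small.

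Falls were largest at COL4A3, COL9A1 and COL28A1. COL4A3, a chain of the kidney's glomerular basement membrane, went from 14.7 and 15.7 CPM on day 1 to 9.17 and 7.97 on day 5, a change of -0.79 (SE 0.16, adjusted p = 0.000104). COL9A1, a chain of the collagen on the surface of cartilage fibrils, went from 27.0 and 25.8 to 14.0 and 16.3 CPM (-0.74 (SE 0.13, adjusted p = 6.18e-06)). COL28A1, a collagen with von Willebrand factor domains, went from 23.6 and 21.0 to 12.7 and 13.8 CPM (-0.70 (SE 0.14, adjusted p = 6.43e-05)). For these genes the 2 libraries of day 5 were well below those of day 1. COL20A1, a fibril-associated collagen, went from 27.9 and 31.0 to 18.3 and 18.9 CPM (-0.61 (SE 0.12, adjusted p = 6.76e-05)). COL10A1, the collagen of hypertrophic cartilage, went from 21.2 and 18.2 to 13.4 and 12.2 CPM (-0.58 (SE 0.15, adjusted p = 0.000871)). COL8A2, a hexagonal network collagen of the cornea, was among the 5 genes that differed most surely among days, with 57.9 and 64.8 CPM on day 1, 39.9 and 38.7 on day 3 and 42.8 and 38.3 on day 5. It was low from day 2 on, as COL28A1 was. COL26A1, with COL18A1 the member of highest summed level, went from 183 and 189 to 160.3 and 152 CPM (-0.20 (SE 0.05, adjusted p = 0.00172)).

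**Figure D1:**
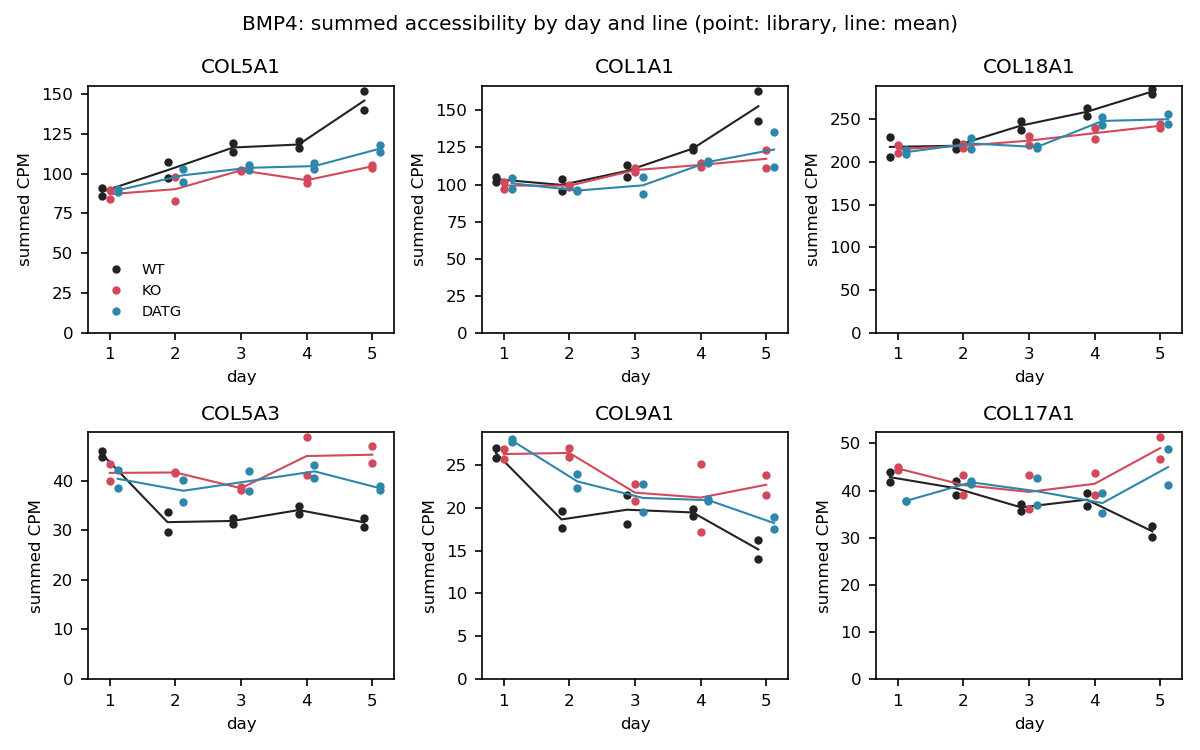
Accessibility of 6 collagen genes on days 1 to 5 of BMP4: the x axis is the day, the y axis the summed level in CPM from 0, points are libraries and lines join the group means of WT, KO and DATG. COL5A1, COL1A1 and COL18A1 climb in WT to their highest level on day 5, above the mutant lines, while COL5A3, COL9A1 and COL17A1 end with WT below both mutant lines.

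These sums depended on which regions were counted. When long non-coding RNA genes could also claim regions, the calls of COL18A1 (0.07), COL1A1 (0.03) and COL4A2 (0.13) were lost. With regions within 1 kb of a gene end alone, the COL18A1 call was lost (0.05) and the direction turned at COL15A1 (-0.55, adjusted p = 0.00703) and COL4A2 (-0.43, adjusted p = 0.00308).

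Single regions changed far more than gene sums in WT under BMP4. Of the 456 collagen regions 167 were called between day 1 and day 5, with 96 higher and 71 lower, beside 34.9% of all regions (20.3% higher, 14.7% lower). Within 1 kb of a gene end 24.1% of 108 collagen regions were called, 14 higher and 12 lower. Of all 36924 such regions 8331 were higher and 2746 lower. The median change there was -0.05 for collagen regions against 0.13 over all such regions. Farther out 40.5% of 348 collagen regions were called, 82 higher and 59 lower (36.7% of all such regions, 20446 higher and 18120 lower). Whether collagen regions differed from all regions in these splits was not tested. In 17 genes some regions rose while others fell, and 4 genes had no called region. These counts of genes were not made over all genes, which have fewer regions each, so whether they are particular to collagen genes was not tested. With scaling by total counts the median change of all regions was -0.17, against -0.03 with the scaling used here, and the collagen split was 81 higher and 108 lower, so the balance of the directions depended on the scaling. The COL18A1, COL5A1 and COL1A1 regions named next changed by far more than this difference.

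A region upstream of COL18A1 (chr21:45360243-45360443, 44822 bases from the gene) went from 1.12 and 0.446 CPM in WT on day 1 to 13.4 and 17.7 on day 5, a rise of 4.38 (SE 0.28, adjusted p = 1.37e-25). A region upstream of COL5A1 (chr9:134602692-134602892, 39011 bases away) went from 2.06 and 2.23 to 16.6 and 20.0 CPM, a rise of 3.24 (SE 0.23, adjusted p = 5.5e-23). A region outside COL1A1 (chr17:50210404-50210604, 8873 bases from its nearer end) went from 7.03 and 6.92 to 27.2 and 29.4 CPM, a rise of 2.16 (SE 0.16, adjusted p = 6.72e-22). All 3 were low on day 1 and high on day 5 with no overlap. Each is counted in its gene's summed level, so the rise of that sum is not separate evidence. A region inside COL22A1, a collagen of muscle-tendon junctions, rose by 1.84 (SE 0.25, adjusted p = 1.52e-09).

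Regions that closed lay near other members or beside opening ones. One past the far end of COL26A1 (chr7:101575263-101575463, 16339 bases away) went from 15.3 and 18.3 to 4.37 and 3.60 CPM, a change of -1.94 (SE 0.21, adjusted p = 1.51e-13). Inside COL20A1, chr20:63331028-63331228 fell by 1.25 (SE 0.25, adjusted p = 2.57e-05). Upstream of COL18A1, chr21:45378618-45378818 (26447 bases away) fell by 1.19 (SE 0.27, adjusted p = 0.000171) while the region farther upstream opened. Inside COL7A1, chr3:48588392-48588592 fell by 1.15 (SE 0.26, adjusted p = 0.000184).

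**Figure D2:**
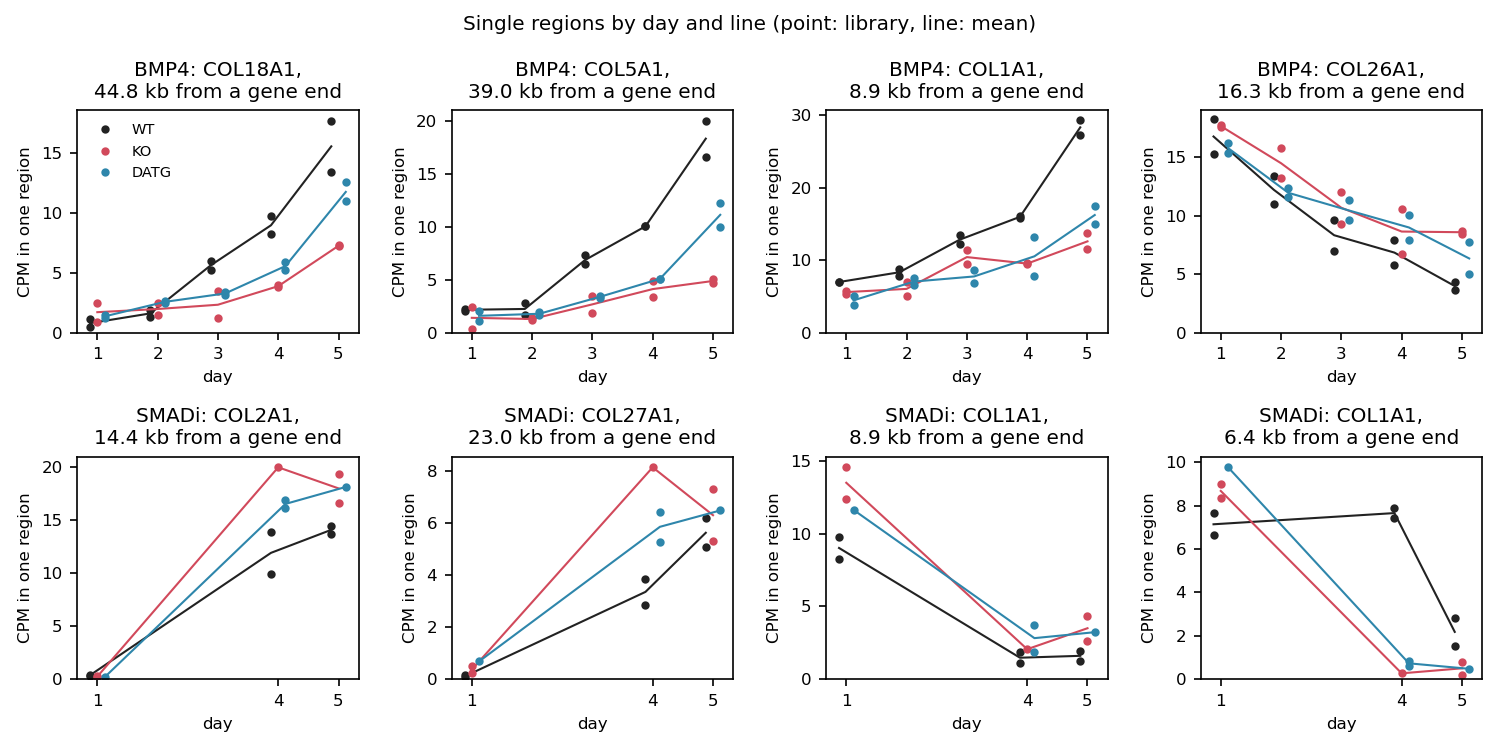
Levels of 8 single collagen regions: the x axis is the day of BMP4 or SMADi, the y axis the region's level in CPM from 0, points are libraries and lines join group means of WT, KO and DATG. The BMP4 regions near COL18A1, COL5A1 and COL1A1 rise in all lines but least in KO, and the SMADi region 6447 bases outside COL1A1 is on day 4 at 7.88 and 7.43 CPM in WT against 0.265 in KO.

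The start windows shown above bore part of these changes. The region on the COL5A1 window had 18.2 and 19.4 CPM on day 1 and 29.0 and 28.8 on day 5, a rise of 0.76 (SE 0.14, adjusted p = 2.75e-06). The region on the COL5A3 window, whose gene encodes another chain of type V collagen, went from 8.62 and 8.48 to 3.50 and 3.93 CPM, a change of -1.05 (SE 0.22, adjusted p = 8.28e-05). The region on the COL9A1 window went from 11.3 and 10.9 to 4.37 and 5.68 CPM, a change of -0.99 (SE 0.20, adjusted p = 3.06e-05). In WT the region on the COL5A1 window thus rose while those on the COL5A3 and COL9A1 windows fell.

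KO differed from WT under BMP4, averaged over the 5 days, at 11 of 44 genes, with 5 higher and 6 lower beside 22.7% of all genes called (11.4% higher, 11.3% lower). DATG differed from WT at 9 of 44, with 2 higher and 7 lower beside 10.4% (5.34% higher, 5.05% lower). The 2 comparisons share the WT libraries, so each is given with its own values. The median difference of collagen genes was -0.03 for KO and -0.01 for DATG, against 0.00 over all genes in both. Lower in KO were 3 of 11 fibrillar genes, 1 of 6 type IV, 1 of 5 type VI and 1 of 2 multiplexin genes. Higher were 2 fibrillar, 2 of 10 fibril-associated and 1 of 4 transmembrane genes. The ranges over the 10 libraries of each line overlapped those of WT for all 44 genes.

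Members lower in the mutant lines were led by COL5A1. COL5A1 had a lowest, median and highest level of 86.0, 115 and 152 CPM in WT, 82.6, 97.7 and 105 in KO and 88.7, 103 and 118 in DATG. The difference from WT was -0.24 (SE 0.03, adjusted p = 1.61e-08) in KO and -0.14 (SE 0.03, adjusted p = 0.000965) in DATG. The lines parted most on day 5, when WT had 140.2 and 152 CPM, KO 105 and 104 and DATG 118 and 113. COL1A1 had 95.4, 109 and 163 CPM in WT, 97.0, 109.6 and 124 in KO and 93.6, 105 and 136 in DATG, and differed from WT by -0.12 (SE 0.03, adjusted p = 0.00354) in KO and -0.13 (SE 0.03, adjusted p = 0.00549) in DATG. Its medians were close and its libraries parted on day 5, with 143 and 163 CPM in WT, 111 and 124 in KO and 136 and 112 in DATG.

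COL18A1 had 206, 243 and 285 CPM in WT, 210.2, 224 and 245 in KO and 209, 223 and 256 in DATG, and differed from WT by -0.11 (SE 0.02, adjusted p = 0.000589) in KO and -0.09 (SE 0.02, adjusted p = 0.0116) in DATG. COL4A2 had 83.6, 100.1 and 111 CPM in WT, 84.0, 95.2 and 99.1 in KO and 83.7, 95.1 and 109 in DATG, and differed by -0.11 (SE 0.03, adjusted p = 0.00484) and -0.11 (SE 0.03, adjusted p = 0.0116). For both genes the mutant medians lay below the WT median and the ranges overlapped widely. COL1A2, the partner chain of type I collagen, had 48.6, 55.9 and 65.3 CPM in WT and 43.9, 49.7 and 55.9 in KO, a difference of -0.17 (SE 0.04, adjusted p = 0.00437). COL6A1, a chain of the type VI microfibrils, differed by -0.10 (SE 0.03, adjusted p = 0.00804) in KO and -0.09 (SE 0.03, adjusted p = 0.0396) in DATG.

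Members higher in KO were led by COL5A3. COL5A3 had 29.7, 32.8 and 46.0 CPM in WT, 38.2, 41.6 and 48.7 in KO and 35.8, 39.5 and 43.2 in DATG. It was higher by 0.29 (SE 0.04, adjusted p = 1.12e-06) in KO and 0.20 (SE 0.04, adjusted p = 0.0014) in DATG. WT reached as high as the mutant lines on day 1 only, with 44.8 and 46.0 CPM. COL20A1 had 18.3, 23.1 and 31.0 CPM in WT, 23.4, 27.7 and 33.2 in KO and 22.2, 27.0 and 33.8 in DATG, and was higher by 0.25 (SE 0.06, adjusted p = 0.000649) in KO and 0.26 (SE 0.06, adjusted p = 0.0016) in DATG. COL9A1 had 14.0, 19.3 and 27.0 CPM in WT and 17.2, 24.5 and 26.9 in KO, a difference of 0.25 (SE 0.06, adjusted p = 0.00116). COL17A1, a transmembrane collagen of hemidesmosomes, had 30.1, 38.1 and 43.96 CPM in WT and 36.2, 43.5 and 51.3 in KO, a difference of 0.19 (SE 0.04, adjusted p = 0.000923). For all of these the KO median was above the WT median within overlapping ranges. COL11A2, a minor chain of cartilage fibrils, had 44.7, 49.9 and 64.9 CPM in WT and 49.8, 54.7 and 66.4 in KO, a difference of 0.11 (SE 0.04, adjusted p = 0.0409).

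COL7A1 and COL11A1, the latter another minor cartilage chain, were called lower in DATG. COL7A1 had 19.6, 23.6 and 32.9 CPM in WT, 18.1, 23.2 and 31.4 in KO and 15.6, 18.7 and 28.1 in DATG. It was lower in DATG than in WT, with a difference of -0.37 (SE 0.07, adjusted p = 7.99e-05), while the difference of KO from WT was -0.06 (SE 0.06, adjusted p = 0.515). The DATG median was below both others. COL11A1 had 29.0, 32.4 and 37.1 CPM in WT and 22.1, 29.8 and 33.1 in DATG, a difference of -0.16 (SE 0.05, adjusted p = 0.0367).

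Whether the change over time itself differed was tested as an interaction: the log2 change from day 1 to day 5 in KO or DATG, less the WT change. Under BMP4 this called 5 of 44 genes for KO (5.61% of all genes) and 1 of 44 for DATG (0.378%). COL5A1 (-0.47 (SE 0.10, adjusted p = 0.00147)) and COL1A1 (-0.34 (SE 0.10, adjusted p = 0.0334)) rose less in KO than in WT. COL5A3 (0.63 (SE 0.13, adjusted p = 0.00238)) and COL17A1 (0.57 (SE 0.14, adjusted p = 0.00742)) fell less or not at all in KO. On day 5 COL17A1 had 30.1 and 32.5 CPM in WT, 51.3 and 46.8 in KO and 41.2 and 48.8 in DATG, and its change in DATG also differed from that in WT (0.66 (SE 0.14, adjusted p = 0.021)).

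Of these calls some rested on single libraries or settings. For KO minus WT, the COL11A2 call was lost without any of 13 of the 30 libraries (highest adjusted p = 0.156) and with DESeq2. For DATG minus WT, the COL11A1 call was lost without any of 14 libraries (highest adjusted p = 0.121) and with DESeq2, and that of COL4A2 without WT day 4 b (-0.09, adjusted p = 0.0655). With long non-coding RNA genes claiming regions, the calls of COL18A1 (-0.05), COL4A2 (-0.02) and COL1A2 (-0.08) in KO were lost and COL1A1 turned (0.04 in KO and 0.02 in DATG), and within 1 kb of gene ends alone the COL5A1 difference was no longer called (-0.14, adjusted p = 0.0519).

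Genes of the marker lists also differed from WT, beside 11.4% of all genes higher and 11.3% lower in KO and 5.34% and 5.05% in DATG. In KO against WT, 8 of 8 pluripotent cell markers and 8 of 8 neuroectoderm markers were higher, 6 of 8 streak and nascent mesoderm markers and 4 of 8 lateral plate and cardiac mesoderm markers were lower, and in DATG the counts were 5, 7, 6 and 3. On day 5 the summed level of the pluripotent list was 544 and 549.9 CPM in WT, 656 and 672 in KO and 611 and 681 in DATG. That of the neuroectoderm list was 987 and 994, 1328 and 1354 and 1133 and 1228 CPM, and that of the streak list 641 and 677, 565 and 579 and 596 and 608 CPM. All 8 genes of each of these 3 lists had regions, and none was at 0. Counts in the opposite direction, and those of the other lists but neural crest, are not given for the mutant lines under BMP4. On day 5 the mesenchyme and fibroblast list summed to 392 and 393 CPM in WT, 412 and 413 in KO and 381 and 383 in DATG. For the chondrocyte and bone list the sums were 368 and 381, 376 and 389, and 381 and 393 CPM. The part of these markers in the collagen differences was not tested.

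Among regions under BMP4, 92 of 456 differed between KO and WT (30 higher, 62 lower, beside 21.5% of all regions called, 9.1% higher and 12.4% lower) and 50 between DATG and WT (15 higher, 35 lower, beside 9.32%, 4.12% higher and 5.21% lower). DESeq2 called 60 and 17 of the 456 regions. The upstream COL5A1 region had 1.65, 6.85 and 20.0 CPM as lowest, median and highest in WT, 0.332, 2.89 and 5.05 in KO and 1.12, 3.36 and 12.3 in DATG. It was lower, with a difference of -1.19 (SE 0.15, adjusted p = 5.45e-10) in KO and -0.72 (SE 0.14, adjusted p = 0.000154) in DATG. The KO libraries of day 5, at 5.05 and 4.69 CPM, were far below the WT ones. The region outside COL1A1 had 6.92, 12.8 and 29.4 CPM in WT, 5.03, 9.44 and 13.7 in KO and 3.80, 7.65 and 17.5 in DATG, and was lower, with a difference of -0.61 (SE 0.09, adjusted p = 2.13e-08) and -0.60 (SE 0.09, adjusted p = 3.11e-07). The upstream COL18A1 region differed by -0.46 (SE 0.16, adjusted p = 0.0314) in KO and by -0.13 (SE 0.16, adjusted p = 0.691) in DATG, and on day 5 it stood at 7.20 and 7.29 CPM in KO and 12.5 and 10.9 in DATG.

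Other regions of the same genes went the other way in the mutant lines. Outside COL1A1 as well, chr17:50207963-50208163 (6432 bases away) had 2.77, 4.49 and 5.24 CPM in WT and 4.97, 6.74 and 8.32 in KO, higher by 0.55 (SE 0.11, adjusted p = 5.11e-05). Inside COL5A1, chr9:134811572-134811772 had 3.13, 5.67 and 7.14 CPM in WT and 5.10, 7.64 and 11.7 in KO, higher by 0.54 (SE 0.10, adjusted p = 1.76e-05). Inside COL5A3, chr19:9966583-9966783 was higher by 0.49 (SE 0.09, adjusted p = 8.08e-06). In COL1A1 and COL5A1 a region that was lower in KO and one that was higher thus belonged to 1 gene sum. COL18A1 also had a region past its far end, inside the neighbouring gene SLC19A1 (chr21:45515698-45515898) that was lower in KO, with a difference of -0.66 (SE 0.11, adjusted p = 1.72e-06). A region outside COL22A1 was higher in KO by 0.59 (SE 0.09, adjusted p = 4.12e-07) and in DATG by 0.40 (SE 0.09, adjusted p = 0.00224), and one inside COL22A1 was lower in KO, with a difference of -0.88 (SE 0.13, adjusted p = 3.27e-08). For DATG the COL22A1 call was lost without DATG day 5 a (0.28, adjusted p = 0.0626). In DATG, regions at COL20A1 (0.46 (SE 0.12, adjusted p = 0.00414)) and COL23A1, a transmembrane collagen (0.44 (SE 0.09, adjusted p = 0.00049)), were higher than in WT.

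Under SMADi, WT cells changed 16 of 44 collagen genes between day 1 and day 5, with 12 higher and 4 lower, beside 39.5% of all genes called (21% higher, 18.5% lower). With scaling by total counts the split was 12 and 7. The median change was -0.01 against 0.00 over all genes, and 21 of 44 genes differed among days 1, 4 and 5 (42.8% of all genes). Of the fibrillar genes 5 of 11 rose and 1 fell, and of the fibril-associated genes 3 of 10 rose and 1 fell. Transmembrane collagens had 2 of 4 risen, multiplexins 1 of 2 and type IV 1 of 6, while 1 of 5 type VI and 1 of 4 anchoring and hexagonal network genes fell.

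COL7A1 had the largest change, from 25.9 and 28.1 CPM on day 1 to 9.03 and 11.3 on day 5, a change of -1.29 (SE 0.16, adjusted p = 6e-07). COL17A1, which was among the fallers under BMP4, went from 36.5 and 39.4 CPM on day 1 through 74.3 and 72.1 on day 4 to 63.2 and 57.9 on day 5, a rise of 0.75 (SE 0.09, adjusted p = 2.01e-07). Both had day 5 libraries clear of those of day 1, in opposite directions. COL15A1 went from 52.7 and 50.3 to 80.1 and 72.1 CPM, a rise of 0.63 (SE 0.08, adjusted p = 9.54e-07). COL2A1 went from 103 and 112 to 143 and 156 CPM, a rise of 0.56 (SE 0.06, adjusted p = 8.25e-08). COL13A1, a transmembrane collagen of the neuromuscular junction, went from 93.1 and 101 to 117 and 128 CPM, a rise of 0.42 (SE 0.07, adjusted p = 4.32e-05). COL2A1 and COL13A1 had reached that level on day 4, and COL15A1 lay between.

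COL20A1 went from 22.6 and 22.2 to 33.4 and 31.1 CPM, a rise of 0.60 (SE 0.11, adjusted p = 0.000119), where under BMP4 it had fallen. COL19A1, a fibril-associated collagen, went from 23.2 and 23.8 to 30.1 and 35.3 CPM, a rise of 0.58 (SE 0.11, adjusted p = 0.000196). COL3A1 went from 4.33 and 2.90 to 5.79 and 6.26 CPM, a rise of 0.82 (SE 0.26, adjusted p = 0.015) at a very low level. COL6A3, the long chain of type VI microfibrils, went from 39.4 and 36.3 to 28.6 and 26.5 CPM, a change of -0.39 (SE 0.12, adjusted p = 0.00902). For all 4 genes both day 5 libraries lay on 1 side of both day 1 libraries. COL14A1, which binds type I fibrils, went from 61.3 and 68.7 to 49.5 and 52.4 CPM (-0.26 (SE 0.08, adjusted p = 0.0147)), and COL1A1 from 99.2 and 102 to 83.7 and 77.1 CPM (-0.25 (SE 0.07, adjusted p = 0.00526)).

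**Figure D3:**
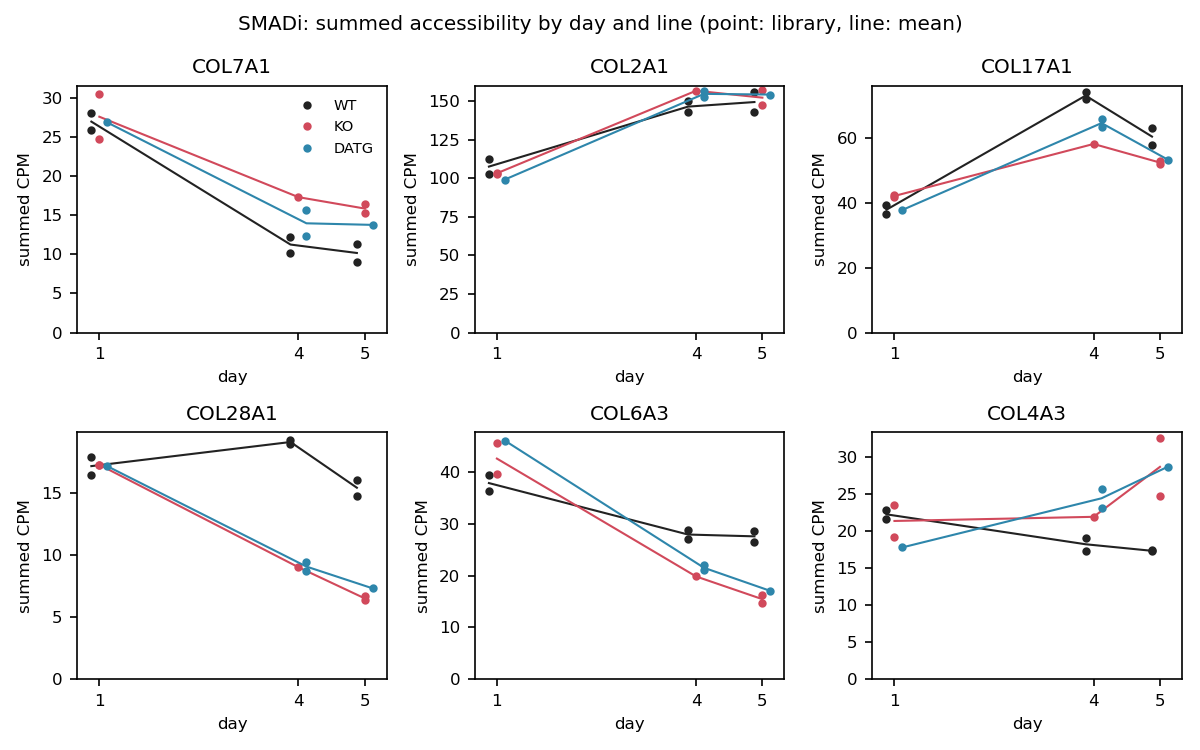
Accessibility of 6 collagen genes on days 1, 4 and 5 of SMADi, with days to scale on the x axis, summed CPM from 0 on the y axis, points for libraries and lines through group means. COL7A1 falls in all lines and COL2A1 and COL17A1 rise, while COL28A1 and COL6A3 drop in KO and DATG below WT and COL4A3 ends higher in both lines than in WT.

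The smaller of these calls depended on single WT libraries. COL3A1 was no longer called without WT day 1 b (0.56, adjusted p = 0.184) or WT day 5 b (0.75, adjusted p = 0.0894), nor with DESeq2 (0.80, adjusted p = 0.0631). The same held for COL6A3 without WT day 1 a (-0.33, adjusted p = 0.0882) or day 5 b (-0.32, adjusted p = 0.0783), COL14A1 without WT day 1 b (-0.18, adjusted p = 0.19) or day 5 a (-0.23, adjusted p = 0.0517), and COL1A1 without WT day 5 b (-0.18, adjusted p = 0.0916). Near gene ends alone (within 1 kb) COL20A1 turned (-1.22, adjusted p = 0.0329) and COL19A1 (0.13) and COL15A1 (0.40) lost their calls.

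Among the 469 collagen regions under SMADi, 189 were called between WT day 1 and day 5, with 109 higher and 80 lower, beside 40.9% of all regions (23.9% higher, 17.1% lower). Within 1 kb of a gene end 4 collagen regions rose and 18 fell, and over all such regions 3947 rose and 4941 fell. Farther out 105 rose and 62 fell, and over all such regions 34777 rose and 22751 fell. In 29 genes regions moved both ways, a count not made over all genes. Some regions were nearly closed on day 1, and these are given as reads. A region inside COL2A1 (chr12:47991728-47991928, 14384 bases from an end) had 5 and 6 reads in the WT libraries of day 1 and 97 and 217 on day 5, a ratio of 38.9 after scaling to totals, with a 95% counting interval of 21.5 to 78.8. A region inside COL27A1, a fibrillar collagen of cartilage (chr9:114177006-114177206), had 1 and 2 reads on day 1 and 36 and 93 on day 5, a ratio of 58.7 (19.6 to 288). A region past the far end of COL11A2 (chr6:33128841-33129041) had 4 and 0 reads on day 1 and 50 and 134 on day 5, a ratio of 62.8 (24.1 to 233). A region inside COL22A1 had 3 and 2 reads on day 1 and 45 and 143 on day 5, a ratio of 51.3 (21.6 to 159.8). These 4 regions were open on day 5 in both WT libraries and nearly closed in both on day 1, and the intervals cover counting error only. A region of COL9A2, another chain of the cartilage fibril surface (chr1:40309436-40309636), also opened (4.97 (SE 0.46, adjusted p = 8.14e-12)).

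The region outside COL1A1 that opened under BMP4 closed under SMADi. At chr17:50210403-50210603 its level went from 9.75 and 8.29 to 1.27 and 1.93 CPM, a change of -2.31 (SE 0.32, adjusted p = 1.08e-07). Inside COL18A1, chr21:45427746-45427946 fell by 1.85 (SE 0.24, adjusted p = 3.56e-08), where its BMP4 counterpart rose by 0.91 (SE 0.16, adjusted p = 1.12e-06). Inside COL4A2, chr13:110327098-110327298 fell by 1.37 (SE 0.31, adjusted p = 0.000364), where the BMP4 counterpart rose by 0.83 (SE 0.20, adjusted p = 0.000391). The tables of the 2 treatments were made separately, so these values stand side by side and the difference between treatments was not tested.

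KO differed from WT under SMADi, averaged over days 1, 4 and 5, at 24 of 44 genes, with 15 higher and 9 lower beside 38.6% of all genes called (17.9% higher, 20.7% lower). Without the doubted library of KO the count was 21, with 13 higher and 8 lower. DATG differed at 15 of 44, with 12 higher and 3 lower beside 28.8% of all genes called (12.4% higher, 16.4% lower), and with total-count scaling the split was 11 and 6. Both comparisons use the WT libraries, and the median difference of collagen genes was 0.01 in KO and 0.02 in DATG. KO and DATG differed from each other at 0 of 44 genes, with 1 at an unadjusted p under 0.05 and 0.111% of all genes called, and DESeq2 called none. That comparison holds the doubted KO library and groups with 1 library, so it does not show that the lines are alike. By family, KO was higher at 4 of 11 fibrillar, 4 of 10 fibril-associated and 3 of 6 type IV genes and DATG at 4, 2 and 4, while the fibrillar genes held 2 lower in KO and none in DATG. Without the doubted library the fibril-associated count of KO was 2, and the fibrillar and type IV counts stayed at 4 and 3.

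COL28A1 was the member furthest below WT. On day 1 it stood at 17.9 and 16.4 CPM in WT, 17.3 and 17.3 in KO and 17.2 in DATG. On day 4 it was at 19.0 and 19.2 in WT, 9.02 in KO and 9.40 and 8.74 in DATG, and on day 5 at 16.1 and 14.8, 6.67 and 6.34 and 7.31. The lines overlapped on day 1, and from day 4 every mutant library lay far below the WT libraries. The difference was -0.78 (SE 0.09, adjusted p = 3.76e-07) in KO (-0.78 without the doubted library) and -0.72 (SE 0.10, adjusted p = 3.68e-06) in DATG.

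COL6A3 showed the same order in time. On day 1 it was at 39.4 and 36.3 CPM in WT, 45.5 and 39.6 in KO and 46.1 in DATG, and on day 5 at 28.6 and 26.5 in WT, 14.7 and 16.2 in KO and 17.0 in DATG. The mutant libraries began above WT and ended below it. The mean difference was -0.40 (SE 0.07, adjusted p = 0.000122) in KO (-0.36 without the doubted library) and -0.27 (SE 0.08, adjusted p = 0.00918) in DATG. COL8A1, a hexagonal network chain of vessel walls, had 41.6 and 36.0 CPM in WT, 28.0 and 27.8 in KO and 29.7 in DATG on day 5, with a mean difference of -0.31 (SE 0.06, adjusted p = 0.000439) in KO (-0.28 without the doubted library) and -0.21 (SE 0.07, adjusted p = 0.0215) in DATG. COL9A3, also of the cartilage fibril surface, had 65.8 and 54.3 CPM in WT and 46.4 and 43.1 in KO on day 5, with a mean difference of -0.23 (SE 0.05, adjusted p = 0.00126) (-0.24 without it). COL3A1 stayed at a low level in every line and was lower in KO, with a difference of -0.75 (SE 0.17, adjusted p = 0.00106) (-0.71 without it). On day 5 both KO libraries of each of these genes lay below both WT libraries.

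Higher in the mutant lines were COL5A1 and COL27A1 among fibrillar genes. COL5A1 had 86.6 and 85.8 CPM on day 5 in WT, 99.1 and 101 in KO and 105 in DATG. COL27A1 had 117 and 116 CPM in WT, 145 and 145 in KO and 139.5 in DATG. All mutant libraries of day 5 exceeded both WT libraries for both genes. COL5A1 was higher by 0.28 (SE 0.04, adjusted p = 9.53e-06) in KO (0.30 without the doubted library) and 0.25 (SE 0.04, adjusted p = 0.000114) in DATG, the opposite of its difference under BMP4. COL27A1 was higher by 0.24 (SE 0.04, adjusted p = 2.78e-05) in KO (0.25 without it) and 0.29 (SE 0.04, adjusted p = 7.29e-06) in DATG.

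Of the type IV chains, COL4A3 had 22.8 and 21.6 CPM in WT on day 1, 23.5 and 19.1 in KO and 17.8 in DATG. On day 5 the levels were 17.4 and 17.2 in WT, 32.5 and 24.7 in KO and 28.6 in DATG. The mutant lines ended above WT after starting near or below it, with mean differences of 0.30 (SE 0.09, adjusted p = 0.00843) in KO (0.35 without the doubted library) and 0.27 (SE 0.09, adjusted p = 0.0302) in DATG. COL4A4, its partner chain, had 12.7 and 13.4 CPM in WT, 17.0 and 16.5 in KO and 19.5 in DATG on day 5, and was higher by 0.40 (SE 0.10, adjusted p = 0.00266) in KO (0.48 without it) and 0.30 (SE 0.11, adjusted p = 0.0381) in DATG. COL4A2 had 55.6 and 57.0 CPM in WT, 69.9 in KO and 70.0 and 71.4 in DATG on day 4, and was higher by 0.22 (SE 0.05, adjusted p = 0.00221) in KO (0.24 without it) and 0.25 (SE 0.06, adjusted p = 0.00152) in DATG. The 9 DATG and KO libraries of COL4A2 ran from 58.5 to 74.1 CPM and the WT libraries from 53.1 to 63.8. COL7A1 had 9.03 and 11.3 CPM on day 5 in WT and 16.4 and 15.3 in KO, and was higher over the days by 0.41 (SE 0.10, adjusted p = 0.00165) (0.46 without it).

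The difference in the change from day 1 to day 5 was called for KO at 15 of 44 genes, with 4 higher and 11 lower beside 21% of all genes (7.58% higher, 13.5% lower). Without the doubted library 8 were called, with 1 higher and 7 lower, and without KO day 1 a, KO day 5 a or WT day 1 a 8, 8 and 7 were called. For DATG, with 1 library on each of those days, 8 of 44 were called, with 3 higher and 5 lower beside 17.4% of all genes (6.86% higher, 10.5% lower). COL28A1 (-1.29 (SE 0.21, adjusted p = 0.000139) in KO, -1.29 without the doubted library, and -1.12 (SE 0.25, adjusted p = 0.00439) in DATG) and COL6A3 (-1.04 (SE 0.16, adjusted p = 8.45e-05), -1.14 without it, and -1.02 (SE 0.20, adjusted p = 0.00105)) fell further in both lines than in WT. COL8A2 did so too, at -0.68 (SE 0.14, adjusted p = 0.00123) in KO (-0.64 without it) and -0.70 (SE 0.17, adjusted p = 0.00593) in DATG. COL4A3 went the other way, at 0.74 (SE 0.20, adjusted p = 0.00909) in KO and 1.00 (SE 0.24, adjusted p = 0.00687) in DATG. The COL4A3 call in KO was lost without the doubted library (0.60, adjusted p = 0.0706) or KO day 5 a (0.55, adjusted p = 0.0737).

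Limits of the mean differences lay mainly at the type IV genes. For DATG, COL4A3 lost its call without DATG day 4 b (0.25), WT day 1 b (0.26) or WT day 4 a (0.25), COL4A4 without DATG day 4 a (0.31), DATG day 4 b (0.30), WT day 1 b (0.29) or WT day 4 b (0.26), and COL8A1 without DATG day 4 a (-0.20) or WT day 1 b (-0.19). Both type IV calls in DATG were also lost with DESeq2 (adjusted p = 0.0667 and 0.084). With the regions of the gene body beyond 50 kb added, COL4A4 was no longer called in either line (0.11 and 0.06), and with long non-coding RNA genes claiming regions neither were COL4A3 (0.14 and 0.23), COL27A1 in KO (0.26, adjusted p = 0.0562), and COL4A2 (0.14) and COL8A1 (-0.12) in DATG.

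Markers of several cell types also differed from WT, beside 17.9% of all genes higher and 20.7% lower in KO and 12.4% and 16.4% in DATG. A list with 1 call in a direction is near these shares. Of the mesenchyme and fibroblast markers tested, 5 of 8 were higher in KO and 1 lower, and 4 of 8 were higher in DATG. Without the doubted library the KO counts were 4 and 0. On day 5 their summed level was 324 and 355 CPM in WT, 413 and 429 in KO and 423 in DATG, over the 8 of 10 list genes with regions. Of the pluripotent cell markers 6 of 8 were lower in each line, and of the neuroectoderm markers 3 of 8 were higher and 1 lower in each. The summed neuroectoderm level on day 5 was 1241 and 1335 CPM in WT, 1421 and 1489.5 in KO and 1494 in DATG. Of the chondrocyte and bone markers 1 was higher and 1 lower in KO and 1 higher in DATG. Endothelium and blood markers had 1 of 7 higher and 4 lower in KO and 1 and 3 in DATG, endoderm markers 4 of 8 and 1 in KO and 3 and 1 in DATG, and amnion and trophoblast markers 1 of 8 and 3 in KO and 0 and 3 in DATG. Lateral plate and cardiac mesoderm markers had 4 of 8 higher and 2 lower in KO and 2 and 1 in DATG, and without the doubted library the KO counts were 1 and 0. Streak and nascent mesoderm markers had 2 higher and 1 lower in each line and neural crest markers 1 and 1. Without that library the KO counts of endoderm, amnion and streak markers were 3 and 1, 1 and 2, and 1 and 1, and those of the other lists stayed as they were. The part of these cells in the collagen differences was not tested.

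**Figure D4:**
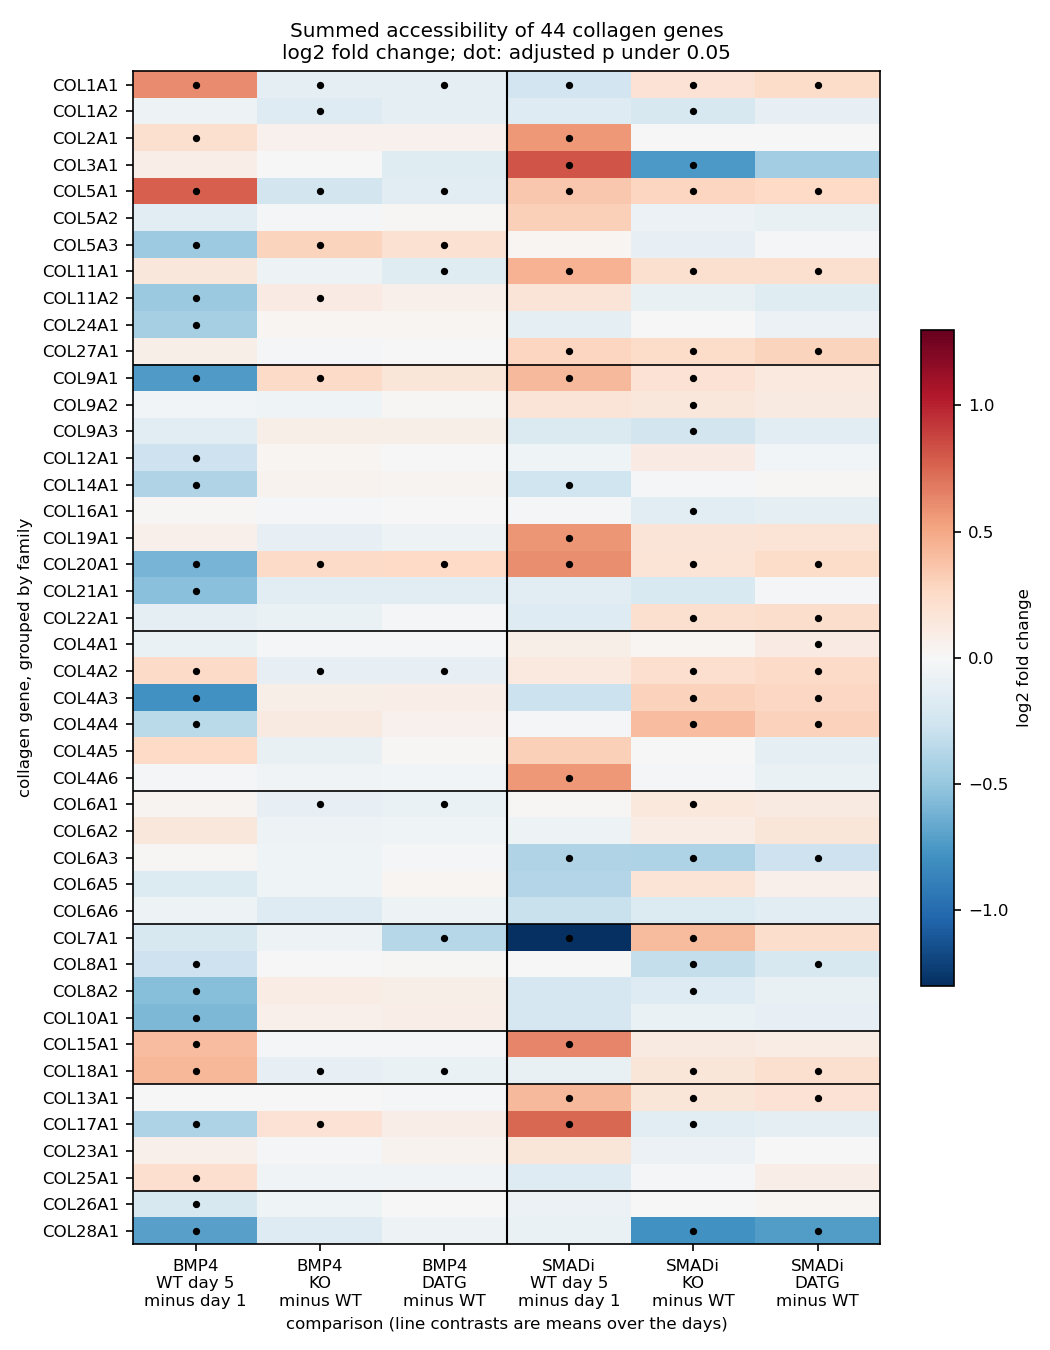
Log2 fold changes of all 44 collagen genes (rows, in family blocks) in 6 comparisons (columns: WT day 5 minus day 1, KO minus WT and DATG minus WT under BMP4 and under SMADi), coloured from lower to higher, with a dot where adjusted p was under 0.05. The BMP4 time course has dots at 23 genes and the SMADi KO column at 24, and COL5A1 is lower in the mutant lines under BMP4 and higher under SMADi.

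Among the 469 SMADi regions 159 differed between KO and WT (98 higher, 61 lower, beside 39.5% of all regions called, 17.9% higher and 21.6% lower) and 128 between DATG and WT (80 higher, 48 lower, beside 28.5%, 11.1% higher and 17.4% lower). Without the doubted library 128 differed between KO and WT (80 higher, 48 lower), and with total-count scaling the KO split was 73 and 72. The median difference over collagen regions was 0.10 in KO and 0.09 in DATG, against 0.00 and -0.01 over all regions, which have no limit of 50 kb. Within 1 kb of a gene end the medians were close, at 0.16 against 0.18 over all such regions in KO and 0.11 against 0.12 in DATG. Farther out they were 0.07 against -0.10 in KO and 0.08 against -0.08 in DATG. In each comparison 20 genes had regions in both directions, a count not made over all genes.

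A region outside COL1A1 (chr17:50207978-50208178, 6447 bases from the gene) had 7.88 and 7.43 CPM in WT on day 4, 0.265 in KO and 0.609 and 0.844 in DATG. It was lower, with a difference of -2.10 (SE 0.27, adjusted p = 3.94e-08) in KO (-2.12 without the doubted library) and -1.60 (SE 0.24, adjusted p = 1.59e-06) in DATG. The mutant lines had almost lost it by day 4, while under BMP4 the region at that place was higher in KO than in WT. A region outside COL2A1 (chr12:48021953-48022153, 15841 bases away and inside the long non-coding RNA genes LOC105369750 and LOC124902927) had 28.6 and 36.5 CPM on day 5 in WT, 4.59 and 4.57 in KO and 5.93 in DATG. It was lower, with a difference of -1.68 (SE 0.10, adjusted p = 8.81e-17) in KO (-1.70 without the doubted library) and -1.46 (SE 0.10, adjusted p = 1.48e-14) in DATG. The summed COL2A1 level did not follow it, with 143 and 156 CPM in WT, 157 and 148 in KO and 154 in DATG on day 5.

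A region inside COL28A1 (chr7:7352943-7353143, 14849 bases from an end and inside the long non-coding RNA gene LOC107986764) had 11.8 and 10.4 CPM on day 1 in WT and 2.40 and 3.93 on day 5, a change of -1.63 (SE 0.27, adjusted p = 4.25e-06). On day 4 it had 7.24 and 4.38 CPM in WT, 0.597 in KO and 0.609 and 0.422 in DATG. It closed earlier in both mutant lines, and was lower, with a difference of -1.78 (SE 0.22, adjusted p = 2.57e-08) in KO (-1.82 without the doubted library) and -1.65 (SE 0.22, adjusted p = 1.05e-07) in DATG. Past the far end of COL18A1, inside SLC19A1, chr21:45527363-45527563 was lower, with a difference of -1.24 (SE 0.17, adjusted p = 1.91e-07) in KO (-1.27 without it) and -0.78 (SE 0.17, adjusted p = 0.00047) in DATG.

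The upstream COL18A1 region, here chr21:45360190-45360390, opened in WT from 0.382 and 0.553 CPM on day 1 to 9.88 and 9.18 on day 5. On day 5 it had 19.7 and 26.4 CPM in KO and 22.6 in DATG, both above WT. Under BMP4 both lines were below WT on day 5, but the DATG difference over the days was not called there. In the SMADi table the region opened further in the mutant lines. There it was higher than in WT by 1.31 (SE 0.21, adjusted p = 4.53e-06) in KO (1.53 without the doubted library) and 1.34 (SE 0.26, adjusted p = 0.00012) in DATG, and its neighbour chr21:45359769-45359969 by 1.67 (SE 0.21, adjusted p = 4.8e-08) in DATG. A region inside COL26A1 (chr7:101551273-101551473) had 5.22 and 3.19 CPM in WT, 12.4 and 13.7 in KO and 11.1 in DATG on day 5. It was higher by 1.22 (SE 0.20, adjusted p = 3.91e-06) in KO (1.16 without the doubted library) and 1.24 (SE 0.21, adjusted p = 1.74e-05) in DATG. A region upstream of COL6A2, a type VI chain (chr21:46054582-46054782), was higher by 1.20 (SE 0.19, adjusted p = 1.88e-06) in KO (1.12 without it). All mutant libraries of day 5 exceeded WT at the COL18A1 and COL26A1 regions.

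The regions of COL27A1 and COL9A2 that opened in WT were higher still in the mutant lines. That of COL27A1 differed by 1.12 (SE 0.32, adjusted p = 0.0055) in KO (1.28, adjusted p = 0.00557 without the doubted library) and 1.28 (SE 0.33, adjusted p = 0.00316) in DATG, and the KO call was lost without KO day 1 a (0.90, adjusted p = 0.107). That of COL9A2 differed by 1.59 (SE 0.56, adjusted p = 0.0286) in DATG, a call that was lost without WT day 1 b (1.39, adjusted p = 0.0572). The region on the COL7A1 start window went from 3.06 and 3.52 CPM on day 1 to 1.55 and 1.33 on day 5 in WT, a change of -1.11 (SE 0.35, adjusted p = 0.0101), and was higher in KO by 0.54 (SE 0.20, adjusted p = 0.0283), a call that was lost without the doubted library (0.52, adjusted p = 0.059). The region on the COL5A1 window was higher by 0.45 (SE 0.08, adjusted p = 3.23e-05) in KO (0.45 without it) and 0.38 (SE 0.09, adjusted p = 0.00104) in DATG. On the COL4A3 window, the region chr2:227164589-227164789 went from 5.35 and 6.08 CPM on day 1 to 3.67 and 2.66 on day 5 in WT, a change of -0.80 (SE 0.28, adjusted p = 0.0196). It was higher in DATG by 0.45 (SE 0.17, adjusted p = 0.0437), and in KO the difference from WT was 0.33 (SE 0.17, adjusted p = 0.107), with 0.30 without the doubted library.

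DATG stood apart from KO at very few collagen genes and regions, as it did over all genes and regions. Under BMP4, KO and DATG differed at 1 of 44 genes, with 5 at an unadjusted p under 0.05 and 2% of all genes called, and at 8 of 456 regions (1.84% of all regions). DESeq2 called 2 of the 456 regions. The gene was COL7A1, higher in KO than in DATG by 0.31 (SE 0.07, adjusted p = 0.00366). Its region chr3:48594554-48594754, 675 bases inside the gene's start, had 2.94, 4.66 and 7.43 CPM as lowest, median and highest in WT, 4.51, 5.48 and 7.59 in KO and 1.62, 3.56 and 5.22 in DATG. It was lower in DATG than in WT, with a difference of -0.63 (SE 0.14, adjusted p = 0.000702) and higher in KO than in DATG by 0.81 (SE 0.13, adjusted p = 1.33e-05), with overlapping ranges. Under SMADi the lines differed at 0 of 469 regions, with 26 at an unadjusted p under 0.05 and 0.0598% of all regions called. The doubted KO library, which lay nearer DATG, and groups with 1 library enter this count, so it does not show that the lines are alike.

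The clearest such region was in COL12A1, which encodes a collagen that coats type I fibrils in tendon. The region, at chr6:75085169-75085369 in the BMP4 table, lies 943 bases inside the gene from its far end. At day 0 the counterpart at chr6:75085157-75085357 had 6.16 and 7.51 CPM in WT, 6.18 and 7.15 in KO and 2.66 and 2.79 in DATG. Under BMP4 the lowest, median and highest levels were 4.37, 4.91 and 6.14 in WT, 3.22, 6.49 and 8.36 in KO and 1.90, 3.14 and 3.73 in DATG. All DATG libraries lay below all WT libraries in both sets. DATG was below WT, at -1.28 (SE 0.30, adjusted p = 0.0283) at day 0, by -0.81 (SE 0.13, adjusted p = 1.15e-06) under BMP4 and by -1.15 (SE 0.19, adjusted p = 1.15e-05) under SMADi. KO was higher than DATG by 1.28 (SE 0.31, adjusted p = 0.0249) at day 0 and 1.07 (SE 0.12, adjusted p = 8.75e-11) under BMP4. Under SMADi KO was lower than WT by -0.56 (SE 0.17, adjusted p = 0.00919), a call that was lost without the doubted library (-0.40, adjusted p = 0.0676), and KO and DATG differed by 0.59 (SE 0.21, adjusted p = 0.703). The region was chosen for its difference in the calls and its day 0 value is 1 of 2 collagen regions called between DATG and WT there (0.206% of all regions), of which DESeq2 called none. Between KO and WT at day 0 no collagen region was called (29 at an unadjusted p under 0.05, 0.0855% of all regions), and between KO and DATG 3 were (0.329%), none of them with DESeq2.

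**Figure D5:**
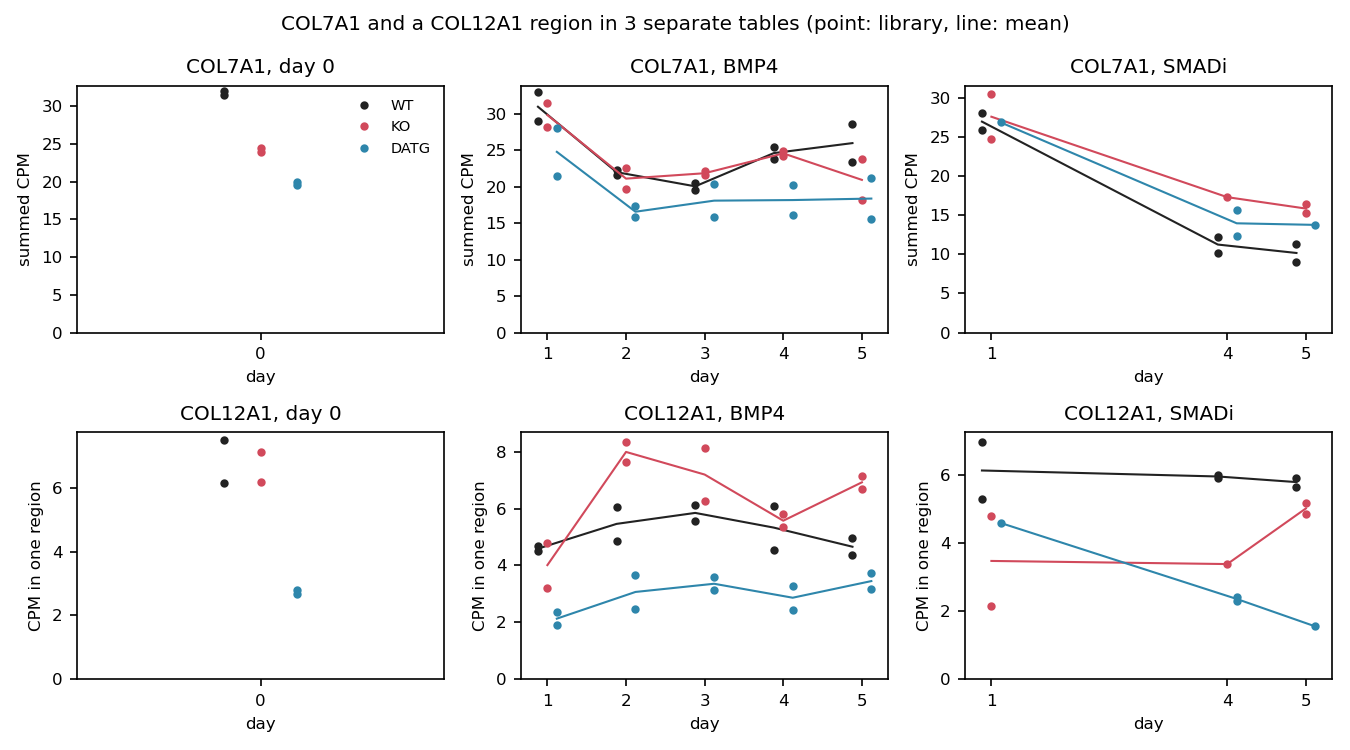
COL7A1 summed levels (top) and the COL12A1 region (bottom) at day 0, under BMP4 and under SMADi: the x axis is the day, the y axis CPM from 0, points are libraries and lines join group means. At day 0 the 2 DATG libraries are lowest for COL7A1 (20.0 and 19.5 CPM) and for the COL12A1 region (2.66 and 2.79 CPM).

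The 6 type IV genes lie as 3 head-to-head pairs whose starts face away from each other. By the starts in the promoter table, those of COL4A1 and COL4A2 are 127 bases apart, those of COL4A5 and COL4A6 380 bases and those of COL4A3 and COL4A4 419 bases, so their start windows overlap by 226, 121 and 82 bases. The gene table lists another COL4A4 start closer to COL4A3, so the distance of that pair depends on the transcript. Pairs that share so short a stretch did not have equal summed levels over time: over the 15 BMP4 group means Pearson's r of log2 CPM was 0.72 for COL4A3 and COL4A4, 0.12 for COL4A5 and COL4A6 and 0.05 for COL4A1 and COL4A2, with the libraries shared by both genes of a pair. A region on the shared COL4A1 and COL4A2 start was higher under SMADi by 0.45 (SE 0.11, adjusted p = 0.00136) in KO (0.42 without the doubted library) and 0.36 (SE 0.12, adjusted p = 0.0195) in DATG. Among 8833 other genes at or above the median level, those most like the sum of COL4A1 and COL4A2 over the same 15 group means were ZNF462 (r = 0.90), BNC2 (0.88) and C1orf198 (0.88). Those most like COL4A3, the member with the largest change in WT under BMP4, were OPRD1 (0.96), TMEM132D (0.94) and DZIP1 (0.93). COL4A5, COL6A2, COL6A5 and COL6A6 were called in none of the gene comparisons.

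Genes that make, cross-link, sense and break down collagen were counted as lists. In WT under BMP4, where 24.9% of all genes rose and 22.5% fell, 9 of 19 genes of collagen modification and folding rose and 2 fell, 6 of 19 of secretion, propeptide cleavage and cross-linking rose and 3 fell, and 7 of 16 other basement membrane genes rose and 2 fell. Of 8 collagen receptors 2 rose and 1 fell, and of 10 breakdown genes 3 rose and 2 fell. P4HB, a subunit of prolyl hydroxylase, rose by 0.75 (SE 0.12, adjusted p = 6.4e-06), and LAMA1, a laminin chain of the embryonic basement membrane, by 0.63 (SE 0.11, adjusted p = 1.36e-05). LAIR1, a collagen receptor of immune cells, fell by 0.86 (SE 0.15, adjusted p = 4.16e-06), and LAMA4, a laminin chain of vessels, by -0.49 (SE 0.09, adjusted p = 1.04e-05).

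In KO against WT under BMP4, beside 11.4% of all genes higher and 11.3% lower, the basement membrane list had 2 of 16 higher and 7 lower. In DATG, beside 5.34% and 5.05%, it had none higher and 4 lower. SPARC, which binds collagen in the matrix, was lower, with a difference of -0.29 (SE 0.03, adjusted p = 4.45e-11) in KO and -0.18 (SE 0.03, adjusted p = 3.95e-05) in DATG. BMP1, the protease that trims fibrillar procollagen, was lower in KO, with a difference of -0.22 (SE 0.04, adjusted p = 7e-06). The modification list had 1 higher and 2 lower in KO and 1 and 1 in DATG, the secretion and cross-linking list 3 and 3 in KO and none higher and 1 lower in DATG, the receptors 2 and 2 in KO and none higher and 2 lower in DATG, and the breakdown list none higher and 4 lower in KO and none higher and 1 lower in DATG. DDR1, a collagen receptor kinase, was higher in KO by 0.14 (SE 0.03, adjusted p = 3.53e-05), and COLGALT1, which adds galactose to collagen, was higher in KO by 0.14 (SE 0.03, adjusted p = 0.000734) and in DATG by 0.13 (SE 0.03, adjusted p = 0.00401).

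Under SMADi in WT, beside 21% of all genes higher and 18.5% lower, 6 of 19 modification genes rose and 4 fell, 3 of 19 of secretion and cross-linking rose and 3 fell, 2 of 9 receptors rose and 2 fell, 3 of 11 breakdown genes rose and 4 fell, and 3 of 16 basement membrane genes rose and 3 fell. DDR2, a receptor for fibrillar collagen, rose by 3.11 (SE 0.27, adjusted p = 1.25e-09), and PLOD1, a lysyl hydroxylase of collagen, fell by 0.68 (SE 0.12, adjusted p = 5.93e-05). PLOD1 was lower, with a difference of -0.72 (SE 0.08, adjusted p = 6.33e-08) in KO (-0.70 without the doubted library) and -0.71 (SE 0.08, adjusted p = 2.03e-07) in DATG. LOXL1, a cross-linking oxidase, was higher by 0.32 (SE 0.04, adjusted p = 2.68e-06) in KO (0.29 without it) and 0.35 (SE 0.05, adjusted p = 2.2e-06) in DATG. The secretion and cross-linking list had 7 of 19 higher and 2 lower in KO (17.9% and 20.7% of all genes) and 6 higher and 1 lower in DATG (12.4% and 16.4%), and the other lists had between 1 and 5 genes in each direction in KO and between 0 and 3 in DATG. Without the doubted library the secretion and cross-linking list had 5 higher and 2 lower in KO, the modification list went from 5 and 2 to 1 and 1, the basement membrane list from 4 and 4 to 2 and 4, and the receptor and breakdown counts stayed at 1 and 1 and at 1 and 3.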

How the data were processed

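Libraries of 3 genotypes were grouped by their titles. The authors deposited whole-number read counts per region of 201 bases in 3 tables, made separately for day 0, BMP4 and SMADi. Per the submitters' processing notes the build was GRCh38 and MACS2 was used. The aligner, read filters and tool versions were not given in the sources used here. Counts were summed over the regions whose nearest protein-coding gene end, of all RefSeq genes (GRCh38.p14), lay within 50 kb of the region's centre and belonged to the gene, and CPM is relative to the library's total in its table. Such sums weigh distal regions more than starts and can hold regions that act on other genes, and their size grows with the number of regions.

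Gene sums and single regions were tested with edgeR's quasi-likelihood test (edgeR 4.0.16, limma 3.58.1, R 4.3.3) with TMM factors, filterByExpr, 1 mean per genotype and day, and Benjamini-Hochberg adjustment over all 17274, 17720 and 17968 genes or 100582, 142083 and 162313 regions of the table, at 0.05. Lines were compared as the mean of the differences within each day. Groups with 1 library borrow the spread of the others. All 44 members and all their regions passed the filter. The test was tried on simulated counts. With 100 genes shifted by a log2 change of 0.5 in the KO contrast, the calls found 65% of them at day 0, 99% in the BMP4 table and 96% in the SMADi table. Another 100 genes were shifted by 1 in the same simulations, and the calls found 95%, 100% and 100% of them. Of the genes not shifted, 3 were falsely called at day 0, 21 in the BMP4 table and 11 in the SMADi table. The share of false calls was thus above 0.05 in the BMP4 simulation and near 0.05 in the SMADi simulation. The median biological variation of gene sums was 0.0485, 0.0398 and 0.0610. The precision behind each value is set by the totals given above, and a count covers reads, not independent molecules.

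Genes named with values are, in each comparison, the called members with the largest differences, up to 5 in each direction, and the 2 with the highest summed CPM. Regions named are the called ones at or above the median level with the largest differences, up to 4 in each direction and 1 per gene, and 2 pathway genes per direction over 5 lists (modification and folding, secretion and cross-linking, receptors, breakdown, other basement membrane genes). Marker lists were pluripotent cells, neuroectoderm, streak and nascent mesoderm, endoderm, lateral plate and cardiac mesoderm, neural crest, mesenchyme and fibroblast, chondrocyte and bone, endothelium and blood, and amnion and trophoblast. The members and lists were chosen with earlier results of these data known. Alternatives were DESeq2 (1.42.0) with its own test, its size factors, total-count scaling, no filter, a block for the replicate letter, regions within 1 kb of a gene end, long non-coding RNA genes as claimants, gene body regions beyond 50 kb, and each library left out. Those for regions at day 0 and for KO against DATG were chosen after seeing the data. The correlation of the deviations of same-lettered libraries from their group means ran from -0.22 to 0.25 over 15 pairs under BMP4, where 4 pairs, those of day 2 among them, were over 0.1, from -0.21 to -0.04 over 3 pairs under SMADi and from -0.14 to 0.03 over 3 pairs at day 0. Not every pair was over 0.1, so the letters were not taken as pairing. Within 24 groups the chi-square per degree of freedom between libraries a and b ran from 1.03 to 3.10, where 1 is counting error alone. The lowest values, such as 1.03 for KO day 1 under BMP4, lay close to counting error. The measure therefore cannot tell technical repeats from separate cultures, and all libraries were entered singly. Sequences and motif searches used the RefSeq promoter table with Python 3.11.15 and pandas 2.3.3.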

Additional observations from a re-analysis of the deposited data

Results flagged for a closer look

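The 23 values here share 1 reason for being listed: the change of a collagen gene from day 1 to day 5 in a mutant line differed from the change in WT by the test of that difference itself, given as the line's log2 change minus that of WT with its standard error. They are the named members, up to 5 in each direction of each comparison, and under SMADi in KO 6 more members called lower are counted above but not named here. A positive value means that the line gained more, or lost less, than WT.

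Under BMP4 in KO the values were 0.63 (SE 0.13, adjusted p = 0.00238) for COL5A3, 0.57 (SE 0.14, adjusted p = 0.00742) for COL17A1, 0.32 (SE 0.09, adjusted p = 0.0291) for COL2A1, -0.47 (SE 0.10, adjusted p = 0.00147) for COL5A1 and -0.34 (SE 0.10, adjusted p = 0.0334) for COL1A1, and in DATG 0.66 (SE 0.14, adjusted p = 0.021) for COL17A1. In KO, COL2A1 went from 91.3 and 92.8 CPM on day 1 to 137 and 122 on day 5, against 98.2 and 101 and then 109.8 and 112 in WT. COL5A1 and COL5A3 kept their calls with any library left out. For KO, COL17A1 was no longer called without KO day 5 a (0.50). COL2A1 was no longer called without KO day 1 a (0.32), KO day 1 b (0.33), KO day 5 a (0.23), WT day 1 b (0.29), WT day 5 a (0.30) or WT day 5 b (0.34). COL1A1 was no longer called without KO day 1 a (-0.30), KO day 1 b (-0.38), KO day 5 a (-0.27), WT day 1 a (-0.30) or WT day 5 b (-0.23). For DATG, COL17A1 was no longer called without DATG day 1 a (0.67), DATG day 1 b (0.65), DATG day 5 b (0.57), WT day 1 a (0.64), WT day 5 a (0.61) or WT day 5 b (0.73). DESeq2 called neither COL17A1, COL2A1 nor COL1A1.

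Under SMADi in KO the positive values were 0.74 (SE 0.20, adjusted p = 0.00909) for COL4A3, 0.45 (SE 0.14, adjusted p = 0.0198) for COL9A2, 0.44 (SE 0.15, adjusted p = 0.0353) for COL11A1 and 0.41 (SE 0.14, adjusted p = 0.0335) for COL25A1. The negative values were -1.29 (SE 0.21, adjusted p = 0.000139) for COL28A1, -1.04 (SE 0.16, adjusted p = 8.45e-05) for COL6A3, -0.68 (SE 0.14, adjusted p = 0.00123) for COL8A2, -0.62 (SE 0.15, adjusted p = 0.0056) for COL20A1 and -0.48 (SE 0.15, adjusted p = 0.0204) for COL8A1. COL28A1, COL6A3, COL8A2 and COL20A1 kept their calls with any library left out, the doubted KO day 1 b among them. COL4A3 was no longer called without KO day 1 b (0.60) or KO day 5 a (0.55). COL9A2 was no longer called without KO day 1 a (0.34), KO day 5 b (0.39), WT day 1 b (0.43) or WT day 5 a (0.36). COL11A1 was no longer called without KO day 1 a (0.48), KO day 1 b (0.40), KO day 5 a (0.45), KO day 5 b (0.42), WT day 1 a (0.38) or WT day 1 b (0.50). COL25A1 was no longer called without KO day 1 b (0.32), KO day 5 a (0.44), KO day 5 b (0.37), WT day 1 a (0.38), WT day 1 b (0.43) or WT day 5 a (0.35). COL8A1 was no longer called without KO day 1 a (-0.38), KO day 5 a (-0.47), WT day 1 a (-0.42) or WT day 5 a (-0.39). COL8A2, which had 45.4 and 42.6 CPM in WT on day 5, was at 29.8 and 34.9 in KO and 33.5 in DATG, and on day 1 the order was reversed at 52.4 and 55.1, 59.9 and 63.2 and 64.2.

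Under SMADi in DATG, with 1 library on each of the days compared, the values were 1.00 (SE 0.24, adjusted p = 0.00687) for COL4A3, 0.86 (SE 0.28, adjusted p = 0.0377) for COL4A4, 0.56 (SE 0.17, adjusted p = 0.0222) for COL9A2, -1.12 (SE 0.25, adjusted p = 0.00439) for COL28A1, -1.02 (SE 0.20, adjusted p = 0.00105) for COL6A3, -0.70 (SE 0.17, adjusted p = 0.00593) for COL8A2, -0.66 (SE 0.19, adjusted p = 0.0163) for COL20A1 and -0.34 (SE 0.11, adjusted p = 0.0423) for COL16A1. COL9A2 went from 38.2 to 62.1 CPM in DATG, from 37.7 and 45.0 to 60.2 and 63.9 in KO and from 46.2 and 47.6 to 45.4 and 53.4 in WT. COL4A4 was no longer called without DATG day 4 a (0.86), DATG day 4 b (0.86), WT day 1 a (0.80) or WT day 1 b (0.92). COL9A2 was no longer called without WT day 1 b (0.54). COL20A1 was no longer called without WT day 1 b (-0.64). COL16A1 was no longer called without DATG day 4 a (-0.34), DATG day 4 b (-0.34), KO day 1 a (-0.33), KO day 1 b (-0.33), WT day 1 a (-0.37), WT day 1 b (-0.30) or WT day 5 a (-0.31). COL4A3, COL28A1, COL6A3 and COL8A2 kept their calls with any library left out.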

How the results depend on the processing

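Simulated recovery of small differences was lowest at day 0, which also has the fewest libraries per line, so depth and number of libraries cannot be told apart there, and groups with 1 library under SMADi have no spread of their own. Sums over regions within 50 kb depend on which gene claims a region. Of the named gene values outside the fits that left out a library, 522 kept direction and call, 78 lost the call and 13 turned; with a library left out 1544 kept and 100 lost it, and none turned. Of the named region values 260 kept and 5 lost the call, and with a library left out 1150 kept and 32 lost it. The cause was not tested for any of these, except that regions within 1 kb and long non-coding RNA claimants leave fewer regions per sum.

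With long non-coding RNA genes as claimants COL1A1 turned under BMP4, to 0.018 for DATG minus WT, 0.037 for KO minus WT and 0.082 for the KO interaction. Within 1 kb of gene ends the values that turned were, under BMP4, COL15A1 (-0.55) and COL4A2 (-0.43) from day 1 to day 5, COL18A1 (0.037), COL1A1 (0.12) and COL4A2 (0.015) for KO minus WT and COL1A1 (0.049) for DATG minus WT, and under SMADi COL20A1 from day 1 to day 5 (-1.22), COL4A4 for DATG minus WT (-0.036), and COL20A1 (0.23) and COL8A2 (0.42) for the DATG interaction.

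Counts of called genes within 1 kb were 0 at day 0 for DATG minus WT, under BMP4 3 for KO minus WT, 1 for DATG minus WT, 1 for the KO interaction and 0 for the DATG interaction, and under SMADi 9 from day 1 to day 5, 7 among days, 6 for KO minus WT, 3 for DATG minus WT, 2 for the KO interaction and 1 for the DATG interaction. With long non-coding RNA claimants 7 genes were called for KO minus WT and 2 for the DATG interaction under BMP4 and 13 for the DATG interaction under SMADi. With DESeq2 the gene counts were 0 for DATG minus WT at day 0, and 2 for the KO and 0 for the DATG interaction under BMP4. Its region counts were 104 from day 1 to day 5, 60 for KO minus WT, 17 for DATG minus WT and 2 for KO minus DATG under BMP4, and 0 for DATG minus WT and 0 for KO minus DATG at day 0.

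With a library left out, called genes numbered 0 to 1 for DATG minus WT at day 0, and under BMP4 1 to 2 for KO minus DATG, 2 (without KO day 5 a) to 6 for the KO interaction and 0 to 3 for the DATG interaction. Under SMADi they numbered 7 to 18 for the KO interaction and 4 (without WT day 1 b) to 17 (without WT day 5 b) for the DATG interaction. Called regions numbered 111 (without WT day 5 b) to 173 from day 1 to day 5, 31 to 52 for DATG minus WT and 3 to 11 for KO minus DATG under BMP4, and 0 to 2 for DATG minus WT and 0 to 3 for KO minus DATG at day 0. Fits without the lone SMADi library of KO day 4, DATG day 1 or DATG day 5 could not give its comparisons.

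In the replicate block fit, the collagen regions called for DATG minus WT at day 0 went from 2 to 1. Under SMADi that block gave 22 genes for KO minus WT and 12 for DATG minus WT (8 higher, 4 lower), and COL4A3 (0.24, adjusted p = 0.0767) and COL4A4 (0.25, adjusted p = 0.1) were no longer called in DATG, nor was the COL16A1 interaction (adjusted p = 0.0532). It ended no other named gene call. Total-count scaling changed the split of called regions for DATG minus WT under BMP4 to 19 higher and 28 lower and for KO minus DATG at day 0 to 1 and 1.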

Other observations

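Marker lists that no comparison above describes gave these counts of called genes. Over all genes 24.9% rose and 22.5% fell in WT under BMP4, and 21% rose and 18.5% fell in WT under SMADi. Between day 1 and day 5 in WT under BMP4, amnion and trophoblast markers had 4 of 8 higher and 1 lower, endothelium and blood markers 2 and 2, endoderm markers 2 and 3, neural crest markers 1 and 2, chondrocyte and bone markers 2 and 1, lateral plate and cardiac mesoderm markers 3 and none, and mesenchyme and fibroblast markers none and 2. In WT under SMADi the same lists, in that order, had 1 higher and 3 lower, 2 and 3, 4 and 2, 5 and 2, 2 and 2, 1 and 2, and 1 and 3. In KO against WT under BMP4 neural crest markers had 4 of 8 higher and 1 lower, as in DATG. Over all genes 11.4% were higher and 11.3% lower in KO, and 5.34% and 5.05% in DATG.

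A collagen region can be lost from view in a gene sum. At COL23A1 the region chr5:178555880-178556080 was lower under SMADi, with a difference of -0.82 (SE 0.13, adjusted p = 5.11e-06) in KO (-0.74 without the doubted library) and -0.69 (SE 0.14, adjusted p = 0.000167) in DATG, and its BMP4 counterpart was higher by 0.29 (SE 0.10, adjusted p = 0.0178) in KO. The summed COL23A1 level differed from WT under SMADi by -0.08 (SE 0.04, adjusted p = 0.157) in KO (-0.08 without it) and 0.00 (SE 0.05, adjusted p = 0.984) in DATG. A region inside COL5A3 (chr19:9966574-9966774) was likewise lower under SMADi, with a difference of -0.93 (SE 0.15, adjusted p = 4.67e-06) in KO (-0.92 without it), where its BMP4 counterpart, described above, was higher.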
